A study of Mus musculus with 6 samples.

Results

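The vomeronasal receptor genes are the genes whose symbol starts with Vmn1r or Vmn2r in the authors' deposited table of all genes. The table held 311 such rows for 265 symbols, among 20414 rows and 18746 symbols in all. Of the members, 203 rows (169 symbols) belonged to the Vmn1r class and 108 rows (96 symbols) to the Vmn2r class. The table compared left with right entorhinal cortex (EC), which links neocortex and hippocampus, of untreated wild-type C57BL/6 mice aged 6 months. Left EC and right EC each had 3 Affymetrix Mouse Gene 2.0 ST arrays, called biological replicates in the labels, which do not say whether any mouse gave both sides. Named genes had 1 signed fold and 1 p-value per row, so no value per array, SD or signal level can be given for a receptor, and the labelled tissue could not be checked by the level of its markers. The deposited folds were read as left over right, which is the likely coding because the title line of the table names left first. Differences of at least 1.5-fold also lay mostly toward right EC in both deposited tables, with 5 rows higher in left EC and 37 toward right EC among named rows, and 42 toward left EC and 199 toward right EC among the unnamed rows of the per-array table.

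Vomeronasal receptors are G protein-coupled receptors of the vomeronasal organ, the sensory organ at the base of the nasal septum that detects pheromones and other social cues. Vmn1r receptors are short proteins of the rhodopsin type that respond to small molecules such as steroid derivatives and signal through the G protein subunit Gnai2 in apical sensory neurons. Vmn2r receptors carry a long extracellular ligand-binding domain, respond to peptides and proteins and signal through Gnao1 in basal neurons. Both classes lie in tandem arrays of close copies on a few chromosomes, and neither is known for a function in the cortex.

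Sequences are shown first for the genes behind the 3 largest folds, each beside its closest copy, to show how alike such genes can be. They are promoter windows, and the sequences that the array's probes target were not examined. RefSeq annotation of GRCm38.p6 matched 264 of the 265 symbols by gene ID, and 235 symbols had a promoter window of 250 bases before and 50 after the annotated start. Vmn1r14 on chromosome 6, the receptor with the largest fold, was closest to Vmn1r12, with 278 of 300 bases identical. Both windows are given on the plus strand of GRCm38.p6, Vmn1r14 at chr6:57233189-57233488 and Vmn1r12 at chr6:57158670-57158969, with capitals at bases that the partner does not share.
Vmn1r14: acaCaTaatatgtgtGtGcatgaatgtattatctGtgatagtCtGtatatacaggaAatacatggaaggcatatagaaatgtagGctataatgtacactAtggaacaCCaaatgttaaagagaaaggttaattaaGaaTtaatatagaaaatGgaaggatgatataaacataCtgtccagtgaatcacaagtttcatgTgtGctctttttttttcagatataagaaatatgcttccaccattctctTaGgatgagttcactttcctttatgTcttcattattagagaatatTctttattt
Vmn1r12: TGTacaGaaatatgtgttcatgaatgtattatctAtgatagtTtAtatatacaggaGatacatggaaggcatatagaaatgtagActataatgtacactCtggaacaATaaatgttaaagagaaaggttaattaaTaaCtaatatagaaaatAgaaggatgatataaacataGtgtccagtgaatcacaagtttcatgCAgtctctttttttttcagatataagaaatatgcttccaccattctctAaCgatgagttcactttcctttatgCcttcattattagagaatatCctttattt
Vmn1r129 on chromosome 7, second by fold, was closest to Vmn1r117, with 297 of 300 bases identical. Both lie on the minus strand of GRCm38.p6, at chr7:21361242-21361541 and chr7:20884072-20884371, and capitals again mark the differing bases.
Vmn1r129: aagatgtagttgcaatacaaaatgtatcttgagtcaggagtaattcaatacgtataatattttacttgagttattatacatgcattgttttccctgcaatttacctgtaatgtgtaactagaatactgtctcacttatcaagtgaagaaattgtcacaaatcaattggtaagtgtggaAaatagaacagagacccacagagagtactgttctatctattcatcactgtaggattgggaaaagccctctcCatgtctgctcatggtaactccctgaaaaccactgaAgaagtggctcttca
Vmn1r117: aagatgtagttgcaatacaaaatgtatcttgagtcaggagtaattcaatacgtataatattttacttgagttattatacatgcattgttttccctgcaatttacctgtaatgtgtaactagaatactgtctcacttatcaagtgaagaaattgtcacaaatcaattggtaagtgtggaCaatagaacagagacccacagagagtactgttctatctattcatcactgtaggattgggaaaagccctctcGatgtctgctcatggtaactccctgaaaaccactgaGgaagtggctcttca
Vmn1r157, next by fold and higher in right EC, had the same 300 bases as Vmn1r112. The window is on the plus strand of GRCm38.p6, at chr7:22761447-22761746 for Vmn1r157 and chr7:20770935-20771234 for Vmn1r112, and is printed once, in lower case because no base differs.
Vmn1r157: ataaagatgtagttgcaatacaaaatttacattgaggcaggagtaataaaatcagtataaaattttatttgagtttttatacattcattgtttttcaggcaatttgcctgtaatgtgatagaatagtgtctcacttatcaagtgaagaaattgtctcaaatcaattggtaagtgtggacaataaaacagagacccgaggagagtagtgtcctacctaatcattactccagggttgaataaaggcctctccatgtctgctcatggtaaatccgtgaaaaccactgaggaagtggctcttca

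Vmn1r14, a receptor of the V1rc family, was 1.51-fold higher in left EC in the authors' deposited table (log2 fold 0.59, p = 5.43e-05). It ranked first of the 311 rows by both size of fold and p, and 2 by p among all rows. By signed log2 fold, counted from the largest fold toward left EC, it was 5 among all rows. That rank leaves out the folds toward right EC, of which 37 were at least 1.5-fold. It was the only vomeronasal receptor among the 6 genes of the authors' cut-off table, which chose genes on these same arrays. After Benjamini-Hochberg adjustment of the deposited p over all 20414 rows its p was 0.554, and 0 vomeronasal rows passed 0.05. The gap to the rest of the family was small: 1 row of Vmn1r129 was 1.45-fold higher in left EC (log2 fold 0.53, p = 0.00052) and Vmn1r157 was 1.398-fold higher in right EC (log2 fold -0.48, p = 0.0151), per the authors' deposited table. Vmn1r124, 1.305-fold higher in left EC (p = 0.038), was the only other row past 1.3-fold in the authors' deposited table, so 3 of the 4 rows past that fold were higher in left EC. Rows past 1.3-fold made up 0.813% of all rows. In bulk tissue fewer cells of a type and less RNA per cell cannot be told apart.

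**Figure D1:**
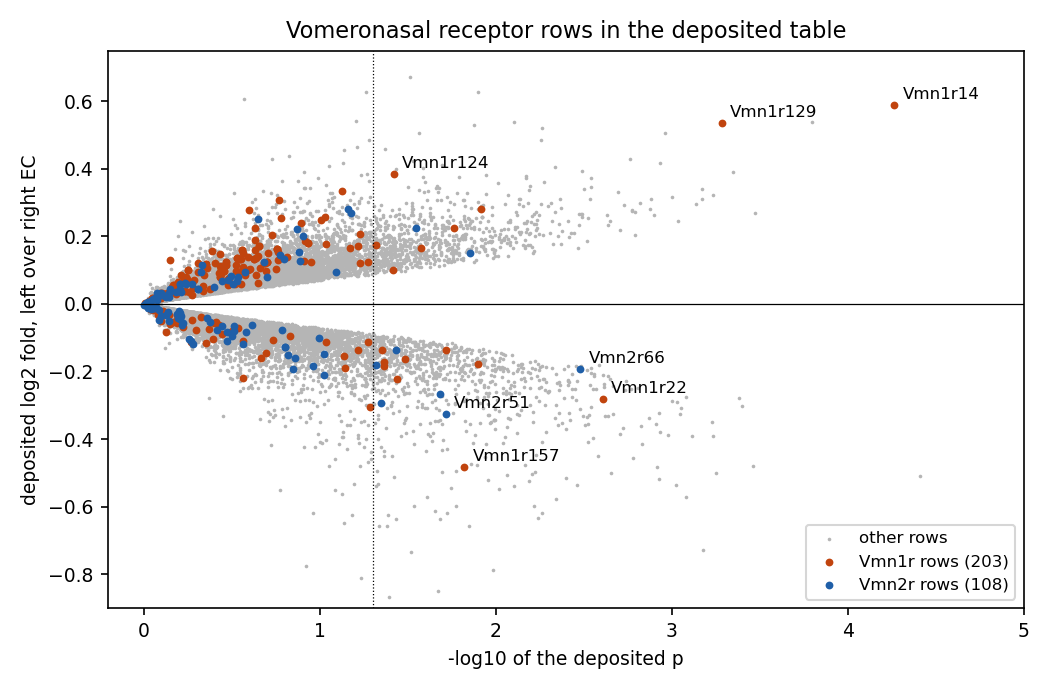
Deposited log2 fold (left over right EC, vertical axis) against -log10 of the deposited p (horizontal axis) for each row of the authors' deposited table, with Vmn1r rows in orange, Vmn2r rows in blue and other rows in grey; the dotted line marks a p of 0.05, and 14 other rows lie below the vertical range. Vmn1r14 lies at 0.59, beside Vmn1r129 at 0.53, while Vmn1r157 lies at -0.48 on the opposite side.

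A deposited p under 0.05 was found in 25 of the 311 vomeronasal rows, 8.04%, against 8.13% of all rows of the authors' deposited table. The receptors thus passed this threshold about as often as the rest of the table. The 25 divided into 10 rows higher in left EC and 15 higher in right EC, while the table as a whole had 3.81% of rows called toward left EC and 4.33% toward right EC. At a deposited p under 0.01 the family had 4 rows, against 1.66% of all rows. These were Vmn1r14 and Vmn1r129 toward left EC, and Vmn1r22 (1.22-fold, p = 0.00247) and Vmn2r66 (1.14-fold, p = 0.00331) toward right EC, per the authors' deposited table.

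Most of these differences were small. Of the 25 rows, 16 differed by less than 1.2-fold. A fold of at least 1.2 was found in 15 rows (4.82%), against 2.57% of all rows, and 6 of those 15 had a deposited p above 0.05. The other 9 met both thresholds, as 1.71% of all rows did. The share at 1.2-fold was not particular to these receptors, as the olfactory receptor genes Olfr reached it in 48 of 914 rows (5.25%). The receptor Vmn1r67 was 1.26-fold higher in left EC with a deposited p of 0.0746, Vmn1r27 1.24-fold higher in left EC with 0.171, and Vmn1r46 1.24-fold higher in right EC with 0.0516, per the authors' deposited table. Vmn1r67 and Vmn1r27 were picked after their values were seen.

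The Vmn1r class had 17 rows with a deposited p under 0.05 (8.37%), 8 higher in left EC and 9 toward right EC. Beside those already named, Vmn1r77 (1.21-fold, p = 0.0122), Vmn1r204 (1.17-fold, p = 0.0173), Vmn1r16 (1.12-fold), Vmn1r-ps103 (1.13-fold) and Vmn1r220 (1.07-fold) were higher in left EC, per the authors' deposited table. The authors' deposited table listed as higher in right EC Vmn1r50 (1.13-fold, p = 0.0126), Vmn1r38 (1.10-fold), Vmn1r219 (1.12-fold), Vmn1r171 (1.17-fold), Vmn1r10 (1.13-fold), Vmn1r128 (1.14-fold) and Vmn1r15 (1.10-fold). The 3 called members of the V1rh family thus included neighbours that went opposite ways, Vmn1r220 toward left EC and Vmn1r219 toward right EC.

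The Vmn2r class had 8 rows with a deposited p under 0.05 (7.41%), 2 higher in left EC and 6 toward right EC. Those toward left EC were Vmn2r106 (1.11-fold, p = 0.0141) and Vmn2r61 (1.17-fold, p = 0.0284), per the authors' deposited table. Toward right EC, beside Vmn2r66, they were Vmn2r51 (1.25-fold, p = 0.0192), Vmn2r15 (1.203-fold, p = 0.0206), Vmn2r12 (1.10-fold), Vmn2r7 (1.23-fold, p = 0.0447) and Vmn2r75 (1.13-fold), per the authors' deposited table. The largest Vmn2r folds toward left EC, Vmn2r17 (1.22-fold, p = 0.0689), Vmn2r16 (1.21-fold, p = 0.066) and Vmn2r2 (1.19-fold, p = 0.224), did not pass, per the authors' deposited table. Vmn2r1, Vmn2r2, Vmn2r3 and Vmn2r7 belong to the small group of Vmn2r genes that are co-expressed with other Vmn2r receptors in basal neurons. Of these 4, Vmn2r1 (1.16-fold higher in right EC, p = 0.0943) and Vmn2r3 (1.01-fold higher in right EC, p = 0.905) did not pass, per the authors' deposited table.

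The 2 classes differed in where their folds were centred. Vmn1r rows had a median log2 fold of 0.07, with 143 of 203 rows (70.4%) higher in left EC, whereas Vmn2r rows had a median of -0.004, with 52 of 108 (48.1%) higher in left EC. With 1 value per symbol the Vmn1r median was 0.04, with 65.7% of symbols higher in left EC. Over all rows the median was 0.007 and 54.1% were higher in left EC. Among the other gene families described below, the left share ran from 46.2% in Speer and 50% in Ssxb to 87.5% in Rhox. In Olfr it was 59.1%. The median size of the log2 fold, without its sign, was 0.101 in Vmn1r, 0.06 in Vmn2r, 0.0835 in Olfr and 0.0516 over all rows. The SD of the log2 fold was 0.13 in Vmn1r, 0.111 in Vmn2r and 0.11 over all rows. The rows of a class come from the same 6 arrays and close copies can share probes, so the class difference was not tested.

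**Figure D2:**
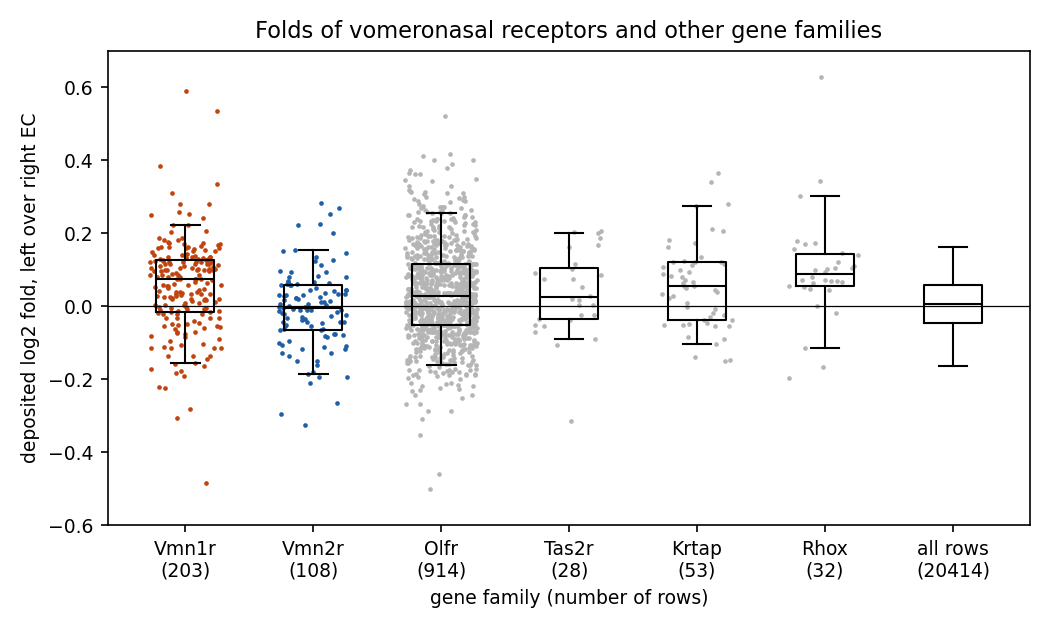
Deposited log2 folds (left over right EC) by gene family, a point per row, with boxes for the quartiles, a line for the median and whiskers to the 5th and 95th percentiles; all rows are shown as a box alone. The Vmn1r box is centred at 0.07, the Vmn2r box at -0.004 and the box of all rows at 0.007.

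The lean of the Vmn1r class toward left EC was most marked in 1 stretch of chromosome 7, a difference given as a description with no test. Members of a class were grouped into a run where neighbouring starts lay less than 1 Mb apart in RefSeq, a grouping made after the values were seen. The run from Vmn1r91 to Vmn1r183 held 86 rows of 55 symbols, of which 72 rows (83.7%) were higher in left EC with a median log2 fold of 0.12. The 117 Vmn1r rows outside it had a median of 0.03, with 71 (60.7%) higher in left EC. Few rows of the run passed a deposited p of 0.05: 5 of 86 (5.81%), 2 higher in left EC and 3 toward right EC, against 10.26% of the Vmn1r rows outside it. The lean was therefore made of many small folds such as those of Vmn1r100 (1.19-fold, p = 0.0985), Vmn1r135 (1.13-fold, p = 0.116) and Vmn1r160 (1.09-fold, p = 0.123) in the authors' deposited table, picked after their values were seen.

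Part of the count in the run came from symbols listed several times. In the whole family 27 symbols had more than 1 row, 19 of them Vmn1r and 8 Vmn2r. Vmn1r117 and Vmn1r118 had 5 rows each, and their rows held 3 distinct values each. Within the run the 47 rows of 16 such symbols were higher in left EC in 45 cases, and the 39 rows of symbols listed once in 27 cases (69.2%). Counting identical rows of a symbol once left 54 of 68 rows of the run toward left EC (79.4%), and averaging the rows of a symbol left 43 of 55 symbols toward left EC (78.2%). Outside the family, symbols with several rows had a median log2 fold of 0.01 and 52.9% of their 2706 rows toward left EC, against 54.1% of rows of symbols listed once. The other 18 rows that lay within the run, of 6 symbols, had 14 toward left EC and a median of 0.07. Among them the authors' deposited table listed V1rd19, which carries an older vomeronasal receptor name, at a log2 fold of 0.08 (p = 0.344) and the egg and early embryo gene Nlrp5 at -0.15 (p = 0.297). Rows of Gm10662 (0.15), Gm10670 (0.09) and Gm4567 (0.001 to 0.14) all lay toward left EC, several with repeated values. Those of Nlrp4e lay on both sides of 0, between -0.05 and 0.07, also with repeated values.

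**Figure D3:**
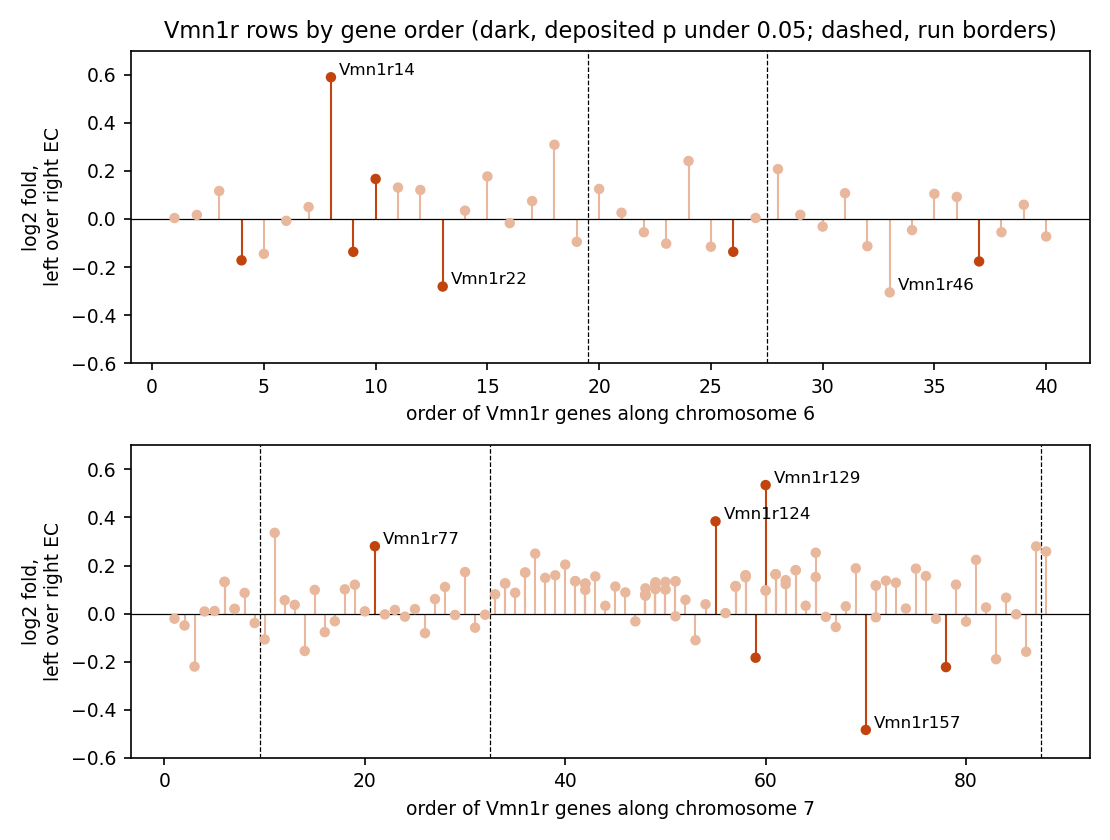
Deposited log2 fold (left over right EC, vertical axis) of each Vmn1r row against the order of its gene along chromosome 6 (top) and chromosome 7 (bottom), with dark points for a deposited p under 0.05 and dashed lines at the borders of runs. On chromosome 6 Vmn1r14 at 0.59 stands between neighbours of both signs, and on chromosome 7 the third run, from Vmn1r91 to Vmn1r183, holds 72 of 86 rows above 0.

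Rows of 1 symbol did not always give the same value, and the values of near-identical copies are uncertain because their probes may be shared. Vmn1r129, second in the family by its largest row, had log2 folds of 0.53, 0.10 and 0.10 in its 3 rows of the authors' deposited table, with p-values of 0.00052, 0.35 and 0.35. Vmn2r51 had -0.33 and -0.08 in its 2 rows (p = 0.0192 and 0.164), per the authors' deposited table. The rows of 5 symbols lay on both sides of 0, Vmn1r120, Vmn1r158, Vmn2r29, Vmn2r42 and Vmn2r-ps54, and the widest of these ranges in the authors' deposited table was that of Vmn2r-ps54, between -0.03 and 0.22. None of the 5 had a row with a deposited p under 0.05. With the folds and the normal scores of the p-values averaged over the rows of each symbol, 23 of 265 symbols had a p under 0.05.

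Promoter windows such as those shown above gave a measure of copying within the run. The median identity of promoter windows was 83.7% over the 1275 pairs within the run that had windows and 60.3% over the 4560 pairs of Vmn1r genes outside it. The pairs outside it also joined genes of different chromosomes. Windows were aligned with gaps, and the 4896 pairs of 1 gene inside the run and 1 outside also had a median of 60%. A value near 60% therefore need not mark close copies. A partner with at least 90% identical bases was found for 43 of 51 genes of the run (84.3%), 21 of 96 other Vmn1r genes (21.9%) and 35 of 88 Vmn2r genes (39.8%). Within the run the 72 rows of genes with such a partner had a median log2 fold of 0.12 and 87.5% toward left EC, and the 8 rows of genes without one a median of 0.01 and 50% toward left EC. Outside the run the 22 Vmn1r rows with such a partner had a median of 0.01 and 50% toward left EC, and the 38 Vmn2r rows a median of -0.02 and 39.5% toward left EC.

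Close copies could still differ in fold. Vmn1r157, at -0.48, and Vmn1r112, at 0.15 (p = 0.173), whose 300 bases were the same, lay 0.64 apart on the log2 scale, per the authors' deposited table. Vmn1r111 and Vmn1r118, also with identical windows, lay 0.00217 apart. Over the run, pairs with at least 90% identical bases differed by a median of 0.113 and pairs below that by 0.11. Vmn1r14 and Vmn1r12 lay at 0.59 and -0.01 (p = 0.921), per the authors' deposited table.

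**Figure D4:**
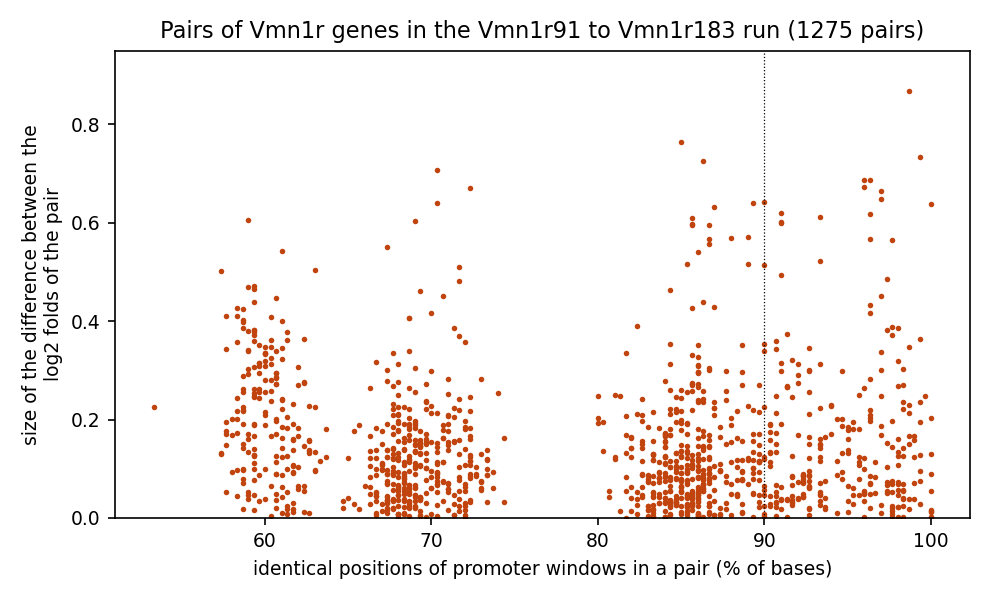
Size of the difference between the log2 folds of 2 Vmn1r genes of the run (vertical axis, mean of the rows of a symbol) against the percentage of identical bases in their promoter windows (horizontal axis), a point for each of 1275 pairs, with a dotted line at 90%. The pair Vmn1r157 and Vmn1r112 lies at 100% and 0.64, and the medians on the sides of the line are 0.113 at or above 90% and 0.11 below it.

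The neighbours of Vmn1r14 lay on both sides of 0. Its run on chromosome 6, from Vmn1r7 to Vmn1r31, held 19 rows, 12 higher in left EC and 7 toward right EC, with a median log2 fold of 0.03. The receptors on either side were Vmn1r13 (1.04-fold higher in left EC, p = 0.691) and Vmn1r15 (1.10-fold higher in right EC, p = 0.0442), per the authors' deposited table. In the run 5 rows had a deposited p under 0.05 (26.3%, against 8.13% of all rows), 2 toward left EC and 3 toward right EC. Of the 22 rows of the V1rc family, 6 passed that p (27.3%), Vmn1r14 and Vmn1r16 toward left EC and Vmn1r10, Vmn1r15, Vmn1r22 and Vmn1r38 toward right EC. The SD of log2 fold over the 22 rows was 0.191. The 5 called rows of the run are all among the 6 of the family, so the 2 shares are not separate results. Both groups are described here because they hold Vmn1r14, which is itself counted. Counts in other named Vmn1r families were 3 of 14 in V1rh, 1 of 5 in V1rb and 1 of 19 in V1rd, and 0 in the 7 rows of V1ra, 12 of V1re, 5 of V1rf, 10 of V1rg, 6 of V1ri, 2 of V1rj and 1 of V1rk. Families were read from older V1r names among the RefSeq synonyms. These gave no family for 98 Vmn1r rows, of which 6 passed (6.12%), among them rows of Vmn1r129, Vmn1r157 and Vmn1r124. For 2 rows they gave several, and 0 of these passed.

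The other runs of receptors differed in their counts of called rows, beside 8.13% over all rows. On chromosome 13 the run from Vmn1r188 to Vmn1r223 had 26 rows, 16 toward left EC, a median of 0.04 and 4 rows with a deposited p under 0.05 (15.4%). On chromosome 17 the 14 Vmn1r rows had 11 toward left EC, a median of 0.06 and 0 such rows. The run of 20 Vmn2r rows from Vmn2r90 to Vmn2r110 had 9 toward left EC, a median of -0.01 and 1 such row (5%). The Vmn2r run on chromosome 5, from Vmn2r8 to Vmn2r17, leaned the other way, with 8 of 10 rows toward right EC, a median of -0.06 and 2 such rows (20%), yet held Vmn2r16 and Vmn2r17 toward left EC. Of the remaining runs with 11 rows or more, Vmn1r40 to Vmn1r54 had 1 of 13 such rows and Vmn1r66 to Vmn1r89 1 of 23. Vmn2r29 to Vmn2r52 had 1 of 17 and Vmn2r65 to Vmn2r79 2 of 14. Vmn1r56 to Vmn1r65 and Vmn2r111 to Vmn2r117 had 0 of 11 each.

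Values are given for 6 receptors with a known ligand, chosen for that ligand, and these 6 lay within 1.15-fold. Vmn2r26, which responds to peptides that bind major histocompatibility molecules, was 1.15-fold higher in left EC (p = 0.124), and Vmn2r116, the receptor of the tear peptide ESP1, was 1.10-fold higher in left EC (p = 0.159), per the authors' deposited table. Vmn2r115, the receptor of the juvenile tear peptide ESP22, was 1.01-fold higher in left EC (p = 0.881), per the authors' deposited table. Of the Vmn1r receptors, Vmn1r49, which responds to 2-heptanone, was 1.07-fold higher in left EC (p = 0.372), per the authors' deposited table. Vmn1r85 and Vmn1r89, which respond to sulfated steroids, were 1.08-fold higher in left EC (p = 0.274) and 1.003-fold higher in right EC (p = 0.966), per the authors' deposited table.

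The signalling partners of these receptors in the vomeronasal neuron had no called row, in a list too short to read this as an absence of differences. Of 14 listed signalling genes 10 were in the authors' deposited table, in 11 rows, and Gnao1 was not among them. Of the 11 rows 0 had a deposited p under 0.05, against 8.13% of all rows. Toward left EC lay 7 rows and toward right EC 4, with a median of 0.01. Trpc2, the transduction channel of vomeronasal neurons, was 1.02-fold higher in right EC (p = 0.375), Gnai2 1.04-fold higher in right EC (p = 0.175), the chloride channel Ano2 1.07-fold higher in right EC (p = 0.0819) and the phospholipase gene Plcb2 1.05-fold higher in left EC (p = 0.2), per the authors' deposited table. Among markers of mature olfactory and vomeronasal sensory neurons 7 of 10 were in the table, 5 toward left EC and 2 toward right EC. Of these 7, 0 had a deposited p under 0.05, again beside 8.13% of all rows. Ano2 and Trpc2, among others, stand in both lists. The receptor transporter Rtp1 was 1.09-fold higher in left EC (p = 0.123), and the channel subunit Cnga4 1.04-fold higher in left EC (p = 0.505), per the authors' deposited table.

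Genes that accompany Vmn2r receptors had 1 called member of 9, beside 8.13% of all rows. The H2-M10 genes encode nonclassical histocompatibility proteins found with Vmn2r receptors in basal neurons. H2-M10.6 was 1.16-fold (p = 0.0253), H2-M10.1 1.22-fold (p = 0.061) and H2-M10.3 1.10-fold (p = 0.112) higher in left EC, per the authors' deposited table. H2-M10.5 was 1.08-fold higher in right EC (p = 0.282) and the chaperone gene Calr4 1.12-fold higher in right EC (p = 0.0603), per the authors' deposited table. The list had 9 of 12 genes in the table, 5 toward left EC and 4 toward right EC, with a median of 0.05. Of the formyl peptide receptor genes, a further family of vomeronasal receptors, 4 of 6 were in the table, 2 on each side, with 0 at a deposited p under 0.05. Fpr-rs6 was 1.06-fold higher in left EC (p = 0.23) and Fpr-rs3 1.13-fold higher in left EC (p = 0.358), against Fpr3, 1.04-fold, and Fpr-rs4, 1.08-fold, higher in right EC (p = 0.467 and 0.509), per the authors' deposited table. The ligand carriers Lcn3, Lcn4 and Obp1a had 0 such rows, Lcn4 being 1.13-fold higher in right EC (p = 0.103), Lcn3 1.06-fold higher in left EC (p = 0.261) and Obp1a 1.02-fold higher in left EC (p = 0.683), per the authors' deposited table. The major urinary proteins, pheromone carriers encoded by close copies, had 14 rows, 11 toward left EC, with a median of 0.12. Mup3 was 1.22-fold higher in right EC (p = 0.0191), and Mup1 (1.12-fold), Mup4 (1.16-fold) and Mup12 (1.198-fold) were higher in left EC with deposited p-values of 0.0705, 0.0963 and 0.11, per the authors' deposited table.

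Genes that guide the development of these neurons had no called member, in a list too short to read this as an absence of differences. Of 10 listed genes 7 were in the table, 3 toward left EC and 4 toward right EC, with a median of -0.03 and 0 at a deposited p under 0.05. The patterning gene Gli3 was 1.09-fold higher in right EC (p = 0.0699), Neurod1 1.06-fold and Sox10 1.02-fold higher in right EC (p = 0.121 and 0.501), and Lhx2 1.05-fold higher in left EC (p = 0.191), per the authors' deposited table.

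Shares of called rows varied among other families of sensory receptors and tissue-restricted genes, against 8.04% of vomeronasal rows and 8.13% of all rows. Olfr genes, the olfactory receptors of the main nose, had 914 rows, of which 87 had a deposited p under 0.05 (9.52%), 66 toward left EC and 21 toward right EC, with a median log2 fold of 0.03 and an SD of 0.128. The smallest deposited p-values among them were those of Olfr969 (1.24-fold, p = 0.000999), Olfr564 (1.199-fold, p = 0.00126) and Olfr151 (1.27-fold, p = 0.00288) toward left EC and Olfr1008 (1.42-fold, p = 0.00222) toward right EC, per the authors' deposited table. The bitter taste receptors Tas2r had 5 of 28 such rows, 4 toward left EC and 1 toward right EC, and the trace amine receptors Taar 0 of 9. Tas2r131 was 1.24-fold higher in right EC (p = 0.00722) and Tas2r137 1.14-fold higher in left EC (p = 0.0105), per the authors' deposited table. The hair keratin-associated genes Krtap had 7 of 53 such rows (13.2%) and the reproductive homeobox genes Rhox 5 of 32 (15.6%), all 5 toward left EC, with medians of 0.06 and 0.09. The Defb, Skint, Ssxb and Speer families had 5 of 38, 2 of 10, 2 of 6 and 1 of 13 such rows. The median log2 folds of Olfr, Tas2r, Defb, Krtap, Rhox and Skint lay toward left EC, between 0.03 and 0.09, that of Taar was 0.001, and those of Ssxb (-0.01) and Speer (-0.05) lay toward right EC.

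The size of the folds was set beside the unnamed per-array rows, whose signal is known. Limma called 0 of 41345 rows at an adjusted p under 0.05 (smallest adjusted p 0.516), and 3023 (7.31%) had an unadjusted limma p under 0.05. The rows were split by mean log2 signal into 10 equal groups, numbered from 1, the dimmest. The median size of the left minus right difference was 0.0847 in group 1, 0.0983 in group 2 and 0.0322 in group 10, falling at each step after group 2. The share of rows at an unadjusted limma p under 0.05 was 8.3% in group 1, 9.58% in group 2 and 2.73% in group 10. Differences of at least 1.5-fold were found in 1.69% of rows of group 2 and in 0.0484% of group 10. Of the 311 vomeronasal rows 1 reached that fold, Vmn1r14. The Vmn1r median of 0.101 lay above that of each of the 10 groups, and the Vmn2r median of 0.06 lay between those of group 7 (0.0613) and group 8 (0.0462). For Vmn1r this rested on the chromosome 7 run and on symbols listed several times: the median size was 0.0758 over the Vmn1r rows outside the run and 0.0851 over Vmn1r symbols with 1 row, both below group 2. Counting identical rows of a symbol once left the Vmn1r median at 0.0985, just above group 2. Other measures placed Vmn1r lower. Its SD of 0.13 lay between those of group 6 (0.141) and group 7 (0.125). Differences of at least 1.2-fold were found in 4.93% of Vmn1r and 4.63% of Vmn2r rows. Group 1 had 9.29%, group 2 13.8%, group 6 6.29% and group 7 4.16%. The unsigned Vmn1r median also includes the shift of the class toward left EC. The side of the differences also varied with signal: 47.6% of rows of group 1, 60.7% of group 4 and 41.5% of group 8 were higher in left EC. The 2 tables were made separately by the authors and need not share a normalization, so the medians are given side by side without a test.

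**Figure D5:**
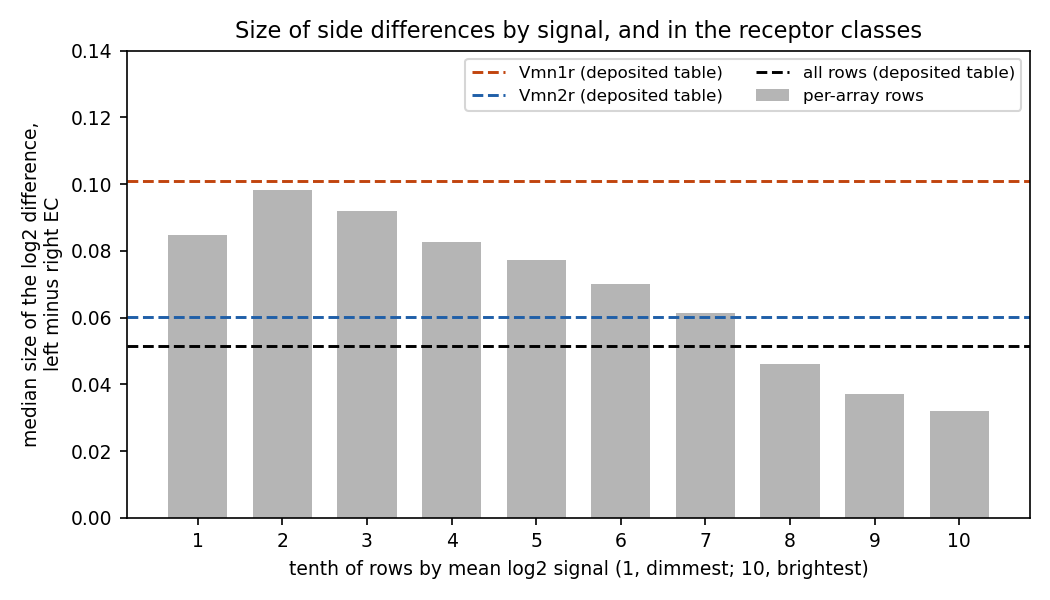
Median size of the log2 difference between left and right EC (vertical axis) in per-array rows split into 10 equal groups by mean log2 signal (bars, dimmest at 1), with dashed lines for the Vmn1r, Vmn2r and all rows of the authors' deposited table. The bars peak at 0.0983 in group 2; the Vmn1r line lies at 0.101, the Vmn2r line at 0.06 and the line of all rows at 0.0516.

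Markers of another brain tissue had larger folds between the sides in the same table, though none passed adjustment. All 7 choroid plexus markers were higher in right EC with a median log2 fold of -1.05, led by Ttr at 5.59-fold, per the authors' deposited table. Of the 7, 5 had a deposited p under 0.05, against 8.13% of all rows. Their Benjamini-Hochberg adjusted p-values were 0.578 to 0.673, and the smallest over all rows was 0.554. The 5 cortical excitatory neuron markers in the table had a median of 0.04, 3 toward left EC and 2 toward right EC, with Tbr1 1.13-fold higher in left EC (p = 0.0346), per the authors' deposited table. The part of these markers' cells in the vomeronasal values was not tested.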

How the data were processed

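Total RNA from both sides was run on Affymetrix Mouse Gene 2.0 ST arrays, per the labels' protocols. Groups came from sample titles. The authors deposited a p-value and a signed fold (treated as a score: minus the reciprocal ratio when higher on the right) per named row, made with Ingenuity iReport per the series description. The sources used here do not give the test behind it. The authors also deposited log2 signals of 41345 unnamed rows and 6 arrays, with array medians of 7.24 to 7.28. The sources used here do not give their normalization, and array number limits precision.

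Folds were turned into log2 folds, and deposited p-values were Benjamini-Hochberg adjusted over all 20414 rows. Per-array rows were fitted with limma 3.58.1 (R 4.3.3; side only), tested on simulated data. RefSeq promoter windows (GRCm38.p6) were aligned globally with Biopython 1.88 (match 1, mismatch -1, gap opening -2, gap extension -0.5). Same-numbered left and right arrays had deviations that correlated at 0.02, -0.09 and 0.05, and differently numbered ones between -0.12 and 0.09. With so few arrays this cannot tell whether numbers pair samples, and arrays were not treated as pairs.

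Members and lists were chosen with earlier results of these data known. Named were Vmn1r14, rows with a deposited p under 0.05, the 3 largest folds per class and direction, and up to 4 genes per list by smallest p. Receptors with known ligands, the Vmn2r1 to Vmn2r7 group and genes within the chromosome 7 run were added afterwards. Alternatives covered row counting, thresholds, normalization, filters, variance models and leaving out arrays.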

Additional observations from a re-analysis of the deposited data

How the results depend on the processing

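The count of 25 vomeronasal rows with a deposited p under 0.05 was 23 to 25 under the other ways of counting rows and without ps symbols and Vmn1r14, 20 without the chromosome 7 run, 4 at a deposited p under 0.01 and 9 with a fold of at least 1.2, stricter thresholds that can only lower it. The share of Vmn1r rows on the left, 70.4%, was 65.7% with 1 value per symbol and 60.7% without the run from Vmn1r91 to Vmn1r183, an alternative added after the data were seen. The median Vmn1r log2 fold fell to 0.04 with 1 value per symbol and to 0.03 without that run. The SDs of both classes moved by less than 1.5 times, and no median or share of Vmn2r changed side. Limma called 0 per-array rows at an adjusted p under 0.05 in every alternative run. Its unadjusted count of 3023 was 1808 on rows above the median signal and 1307 on those below, which are smaller tables, 2104 to 3829 when 1 array was left out, and 2790 with the replicate number as a block. Those alternatives could not be run on named receptors, which have no value per array. The SD of the difference among the dimmest 10% of rows, 0.168, was 0.182 to 0.197 when 1 array was left out.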
